A study of Mus musculus with 3 samples.

Results

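The Sox2 control region (SCR) on the 129 allele was compared between cells in which it was inactive and cells in which it was active, read by read over 6 neighbouring CpGs. The inactive side was the 129 allele of the 129OFF/CASTON population, and the active side was the 129 allele of the 129ON/CASTON population. Reads were kept if they carried a methylation call at all 6 CpGs, which gave 16505 of 16653 reads (99.1%) on the inactive side and 21740 of 22171 (98.1%) on the active side. Together these were 38245 of the 88677 such reads in the whole series, which holds 3 libraries and both alleles. Reads without a full set of calls most often lacked CpG 6, in 88 reads on the inactive and 161 reads on the active side.

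The cells were 129/Castaneus F1 hybrid mouse embryonic stem cells (mESCs) with a Snrpn-tdTomato reporter in the SCR of their 129 allele and Snrpn-eGFP in that of their Castaneus allele. All populations grew in serum-free medium with LIF and inhibitors of MEK and GSK3-β, and were sorted in 2 rounds on reporter fluorescence, tdTomato-/eGFP+ for 129OFF/CASTON and tdTomato+/eGFP+ for 129ON/CASTON. DNA of 200000 sorted cells per population was bisulfite-converted, amplified at the SCR and sequenced as 1 library. The remaining population, tdTomato+/eGFP- (129ON/CASTOFF), also has an active 129 allele. Its 36951 full 129 reads serve below as a measure of how far 2 libraries of the same 129 state lay apart. These 2 populations also differ in the state of the Castaneus SCR and in the sort gate. Spread between libraries and an effect of those differences cannot be told apart. The groups are defined by a reporter placed in the enhancer, so "inactive" means that this reporter was silent on that allele. The paper describes the reporter as sensitive to CpG methylation and silent when methylated. The sort therefore selected on methylation close to the CpGs described here.

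CpG methylation is a covalent mark on cytosine that is copied to the new strand after DNA replication by the maintenance methyltransferase and set on unmarked DNA by the de novo enzymes. At enhancers, dense methylation goes with a silent state and low methylation with binding of transcription factors. The SCR is the distal enhancer cluster that drives Sox2, a core pluripotency factor, in mESCs. In bisulfite sequencing an unmethylated cytosine is read as thymine and a methylated one as cytosine, so each read reports the state of all its CpGs on one DNA molecule, and the order of states along it is what an average level per CpG cannot show.

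The 6 CpGs lie in 1 stretch of the SCR, and the stretch from 20 bases before CpG 1 to 20 bases after CpG 6 is printed here because the spacing of its CpGs sets the distances used throughout. It is chr3:34759618-34759842 of GRCm38.p6 (mm10), plus strand, the C57BL/6J reference sequence rather than the 129 one, with the CpGs in capitals.
SCR stretch: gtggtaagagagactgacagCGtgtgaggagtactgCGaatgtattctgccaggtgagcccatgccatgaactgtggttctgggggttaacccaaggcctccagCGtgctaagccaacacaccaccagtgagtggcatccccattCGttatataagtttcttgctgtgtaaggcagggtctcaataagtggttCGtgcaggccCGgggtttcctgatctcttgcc

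The CpGs are numbered 1 to 6 in this order, at positions 34759638, 34759654, 34759722, 34759763, 34759811 and 34759821 on chromosome 3. CpGs 1 and 2 are 16 bp apart and CpGs 5 and 6 are 10 bp apart, while CpG 3 is 68 bp from CpG 2 and 41 bp from CpG 4, and CpG 4 is 48 bp from CpG 5. The windows of 10 bases on either side of the CpGs that stood out in the reads are given separately, CpG 2 for the active allele, CpGs 3 and 4 for the inactive allele.
CpG 2: aggagtactgCGaatgtattct
CpG 3: aggcctccagCGtgctaagcca
CpG 4: catccccattCGttatataagt

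No RefSeq gene overlaps the 6 positions. They lie in the RefSeq element of the SCR (34755799 to 34762403) in intergenic sequence between the 2 enhancers annotated in or next to it (34757649 to 34759185 and 34761023 to 34762535).

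Since the sorting reporter is itself silenced by methylation, the sort favoured higher methylation on the inactive side. The difference was present at every CpG and is no independent check of the labels. The inactive 129 allele was methylated at 77.5% of calls and the active one at 6.64%, and all 6 CpGs differed by a two-sided Fisher's exact test with Benjamini-Hochberg adjustment (100% of those tested). Differences ranged from 62.7 percentage points at CpG 3 (95% interval 62.0 to 63.5) to 75.5 points at CpG 4 (74.8 to 76.1). By the same test, 5 of 6 CpGs (83.3%) also differed between the 2 libraries with an active 129 allele, but by at most 6.40 points, at CpG 2. With 1 library per side there is no replicate error. The tests compare libraries rather than conditions, and since several PCR reads can stem from 1 molecule and the calls carry no molecular identifiers, all intervals and p-values cover counting error only.

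**Figure D1:**
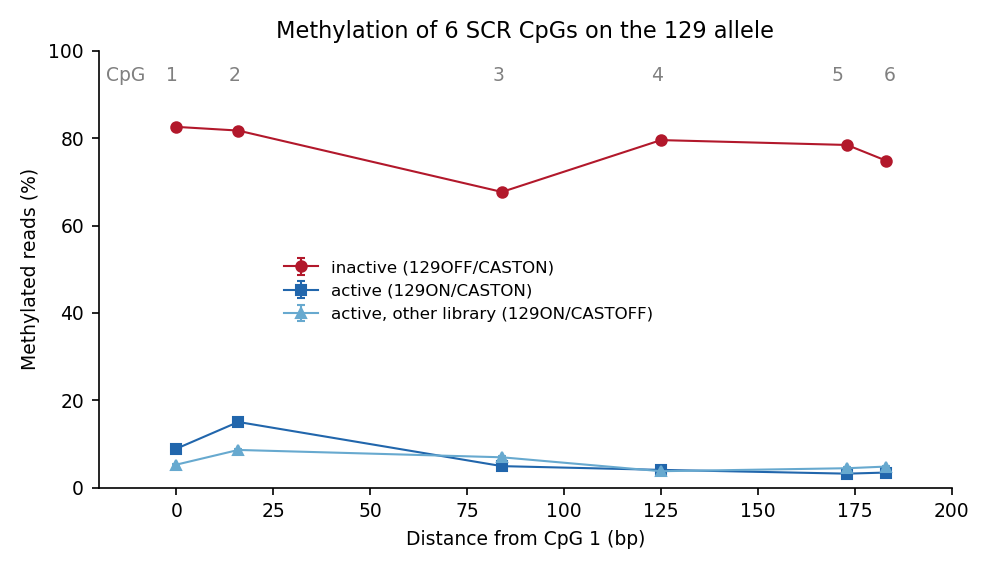
Percentage of methylated reads at each of the 6 CpGs (y axis) against the distance from CpG 1 in bp (x axis), for the 129 allele of the 3 libraries, with Wilson 95% intervals that are smaller than most symbols. The inactive allele was lowest at CpG 3 (67.7%), while the active allele of the 129ON/CASTON library was highest at CpG 2 (15.1%).

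The levels did not run in parallel along the stretch. CpGs 1 and 2 were highest on the inactive allele (82.6% and 81.7%) and CpG 3 lowest (67.7%), and CpGs 4, 5 and 6 were at 79.6%, 78.4% and 74.9%. CpG 2 (15.1%) and CpG 1 (8.94%) were highest on the active allele, where CpGs 3 to 6 fell between 3.24% and 4.96%. In the other library with an active 129 allele, CpG 2 was again the highest, at 8.67%, and CpG 3 came next with 6.99%, ahead of CpG 1 with 5.30%. The order of the CpGs on the active allele was thus not the same in the 2 active libraries, apart from CpG 2.

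Each read falls into 1 of 64 patterns, drawn here as 6 circles from CpG 1 to CpG 6 with a filled circle for a methylated and an open circle for an unmethylated CpG. The inactive allele was spread over many patterns and the active allele over few. All 64 patterns occurred on the inactive allele, 16 of them in at least 1% of reads, and 21 patterns were needed to cover 90% of reads. The active allele showed 59 patterns, 7 of them in at least 1% of reads, and 5 patterns covered 90%. The 5 patterns without a read on the active allele were ○●●○●○, ●○○●○●, ●○●○○●, ●○●●○● and ●●○●●○, and 0 of 21740 reads allows a share of up to 0.0138%.

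The fully methylated pattern ●●●●●● led on the inactive allele with 6344 reads (38.4%, 95% interval 37.7% to 39.2%). The next was ●●○●●●, in which CpG 3 alone was unmethylated, with 1677 reads (10.2%). ●●●●●○ followed with 4.88% and ●●●●○○ with 4.57%, both of which lack methylation at the right end of the stretch only. ●●●○●● (3.45%) and ●●○○●● (3.32%) had an unmethylated gap in the middle. ○○○○○○, ●○●●●●, ○○●●●● and ●●●○○○ closed the 10 most frequent patterns, with 2.81%, 2.78%, 2.55% and 2.25%. These 10 patterns held 75.2% of inactive reads.

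The fully unmethylated pattern ○○○○○○ held most of the active allele, with 16104 reads (74.1%, 73.5% to 74.7%). ○●○○○○, in which CpG 2 alone was methylated, came second with 1950 reads (8.97%). ●○○○○○ (3.56%) and ●●○○○○ (3.04%) followed, so the 3 patterns with methylation at CpGs 1 or 2 only were those next in frequency. ○○●○○○, ○○○●○○, ○○○○○● and ○○○○●○, each with a single methylated CpG, were at 2.03%, 1.44%, 1.17% and 0.810%. ●●●●●● (0.658%) and ●●●○○○ (0.561%) completed the 10 most frequent, which together held 96.3% of active reads. In the other library with an active 129 allele ○○○○○○ was at 77.0% and ○●○○○○ at 5.50%, and ○○●○○○ was at 4.18%, above ●○○○○○ with 2.55%.

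**Figure D2:**
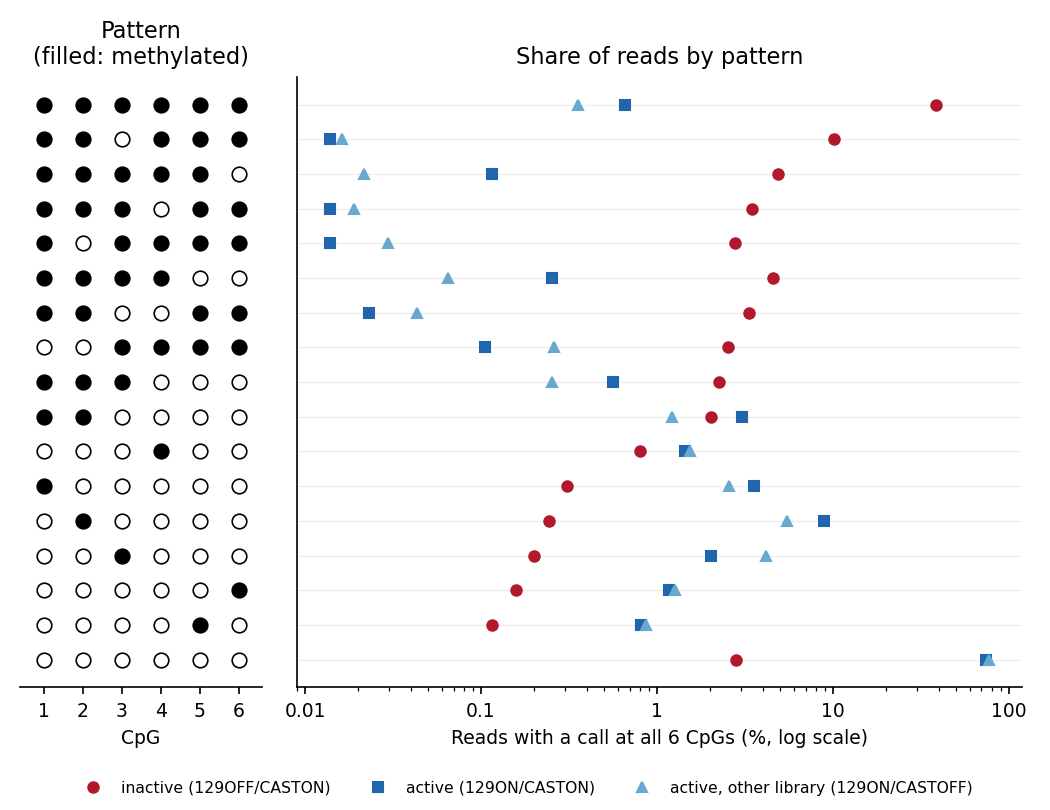
The 17 patterns that were among the 10 most frequent on the inactive or the active 129 allele (rows, circles from CpG 1 to CpG 6, filled where methylated), with their share of reads on a log axis for the 3 libraries. From top to bottom the patterns carry fewer methylated CpGs, and ●●○○○○ is the first at which the active 129ON/CASTON library (3.04%) lies above the inactive one (2.04%). The other active library (1.21%) lies below both there.

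Of the 64 patterns, 56 (87.5%) differed in frequency between the inactive and the active allele by Fisher's exact test after adjustment. The inactive allele had more of 46 patterns and the active allele more of 10, which were ○○○○○○, the 6 patterns with a single methylated CpG, and ●●○○○○, ○●●○○○ and ○●○○○●. For ●●○○○○ the direction was reversed with the other active library (1.21%, against 2.04% on the inactive allele). The same test called 27 patterns (42.2%) between the 2 active libraries, so a call alone says little here and size says more. The largest difference between the active libraries was 3.47 points, at ○●○○○○. A difference above that was found between inactive and active allele for 6 patterns. These were ○○○○○○ (-71.3 points, inactive minus active), ●●●●●● (37.8), ●●○●●● (10.1), ○●○○○○ (-8.73), ●●●●●○ (4.76) and ●●●●○○ (4.32). For 57 of the 64 patterns, the inactive and active allele lay farther apart than the 2 active libraries did for the same pattern.

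Apart from ○○○○○○, ●●○○○○ was the one pattern held by at least 1% of reads on both alleles. It had 336 inactive reads (2.04%) and 660 active reads (3.04%), and the interval of the difference ran from -1.31 to -0.684 points. In the other active library it was at 1.21%, below the inactive allele and farther from the 129ON/CASTON library than the inactive allele was. ●●●○○○, with 1 more methylated CpG, was at 2.25% on the inactive and 0.561% on the active allele. The 45 patterns not named by rank, uniformity or a single odd CpG held 17.4% of inactive reads, from 0.00606% for ○●○○○● to 2.23% for ○○○●●●. They held 3.04% of active reads, at most 0.446% for ○○○○●●, and this last pattern was at 1.75% in the other active library.

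Counted by the number of methylated CpGs, both alleles had a small second group at the opposite end. Inactive reads with 6, 5, 4, 3, 2, 1 and 0 methylated CpGs made up 38.4%, 24.8%, 16.8%, 10.5%, 4.76%, 1.83% and 2.81%. The 463 fully unmethylated reads therefore outnumbered the 302 reads with 1 methylated CpG. Active reads with 0 to 6 methylated CpGs made up 74.1%, 18.0%, 5.09%, 1.32%, 0.612%, 0.262% and 0.658%. Here the 143 fully methylated reads outnumbered the 57 reads with 5 methylated CpGs. The other active library had the same shape, with 0.355% of reads at 6 and 0.130% at 5 methylated CpGs.

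The pattern shares were set beside 2 simple expectations, without a test. The first multiplies the levels of the 6 CpGs as if they were unlinked, and the second builds each pattern as a chain in which a CpG depends only on the one before it. On the inactive allele, ●●●●●● would make up 21.4% of reads from the levels and 36.9% from the chain, against 38.4% observed. ●●○●●● would make up 10.2% from the levels and 9.86% from the chain, close to the 10.2% seen. ○○○○○○, in contrast, would make up 0.0114% from the levels and 0.897% from the chain, and was seen at 2.81%, 3.13 times the chain. For active reads, ○○○○○○ (74.1%) lay near the chain value of 73.7%, while ●●●●●● (0.658%) was 13.5 times its chain value of 0.0487%.

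Over all patterns, the share of reads that would have to move to another pattern to match the chain was 7.59% on the inactive and 3.61% on the active allele. To match the product of the levels it was 34.0% and 13.2%. The chain takes its neighbour pairs from these same reads, so a closer match than from the levels alone was largely built in. The uniform pattern of the opposite state was above the chain on both alleles.

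Reads with a single odd CpG show which position broke an otherwise uniform read. Of the inactive reads, 4093 were methylated at 5 of 6 CpGs, and the unmethylated one was CpG 3 in 1677 of them (41.0%, 39.5% to 42.5%). CpG 6 came next with 805 reads (19.7%), then CpG 4 with 570 (13.9%), CpG 2 with 459 (11.2%), CpG 1 with 333 (8.14%) and CpG 5 with 249 (6.08%). Only 57 active reads were of this kind, and in 46 of them the odd one was CpG 5 or CpG 6, with 21 and 25 reads. CpG 3 was the odd one in 3 of these 57 reads. The other active library did not share this preference, since CpG 5 or CpG 6 was the odd one in 11 of its 48 such reads and CpG 1 in 13.

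The opposite kind, a single methylated CpG, was found in 3910 active reads. In 1950 of them (49.9%, 48.3% to 51.4%) it was CpG 2, followed by CpG 1 with 774 (19.8%), CpG 3 with 442 (11.3%), CpG 4 with 314 (8.03%), CpG 6 with 254 and CpG 5 with 176. On the inactive allele 302 reads were of this kind, and the methylated one was CpG 4 in 133 of them (44.0%, 38.6% to 49.7%), while CpG 2 accounted for 40 (13.2%). A lone methylated CpG was thus most often CpG 2 on the active and CpG 4 on the inactive allele. In the other active library it was also most often CpG 2, in 2033 of 5881 reads.

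Reads could also be asked about one CpG at a time, given that the other 5 shared 1 state. Where the other 5 were methylated, CpG 3 was methylated in 79.1% of inactive reads (78.2% to 80.0%, 8021 reads) and in 97.9% of active reads (94.1% to 99.3%, 146 reads), a difference of -18.9 points (-20.5 to -14.9). The other active library had 95.6% (137 reads) at this CpG. In the same context the remaining CpGs of the inactive allele lay between 88.7% at CpG 6 and 96.2% at CpG 5. Those of the active allele lay between 85.1% and 98.6%, on 145 to 168 reads each.

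Where the other 5 were unmethylated, CpG 4 was methylated in 22.3% of inactive reads (19.2% to 25.8%, 596 reads) and in 1.91% of active reads (16418 reads), a difference of 20.4 points (17.2 to 23.9). The other active library had 1.95%. CpG 2 went the other way in this context, with 7.95% on the inactive and 10.8% on the active allele (difference -2.85 points, -4.96 to -0.117), but at 6.67% in the other active library it was below the inactive value. The remaining CpGs were between 3.94% and 9.92% on the inactive and between 1.08% and 4.59% on the active allele. The reads behind the CpG 3 and CpG 4 contrasts were picked out after the patterns had been seen.

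The next question was where along a read the state changed. A change between neighbouring CpGs was most frequent on the inactive allele on either side of CpG 3, in 30.4% of reads between CpGs 2 and 3 and 28.7% between CpGs 3 and 4. It was seen in 22.0% between CpGs 4 and 5, 13.3% between CpGs 5 and 6 and 12.7% between CpGs 1 and 2. On the active allele changes were most frequent at the left end, 15.5% between CpGs 2 and 3 and 13.9% between CpGs 1 and 2. They were seen in 5.82%, 4.33% and 3.29% of reads in the 3 intervals that follow. The levels alone place the most changes in these same intervals. As if unlinked, they give 38.8% and 39.5% on either side of CpG 3 on the inactive allele, against 29.3% to 35.8% elsewhere. For the active allele they give 21.3% and 18.5% at the left end, against 6.51% to 8.66% elsewhere.

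All 5 intervals (100%) differed between the alleles by Fisher's exact test after adjustment, as did all 5 (100%) between the 2 active libraries. In the 4 intervals from CpG 2 onwards the inactive allele had more changes, by 14.9, 22.9, 17.6 and 10.0 points, and the active libraries were at most 2.47 points apart there. Between CpGs 1 and 2 the inactive allele had fewer changes than the active one, by -1.20 points (-1.89 to -0.517, Fisher's exact test, adjusted p = 0.000608). That difference was smaller than the 4.19 points between the active libraries (13.9% and 9.70%), and against the other active library the inactive allele had more changes.

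**Figure D3:**
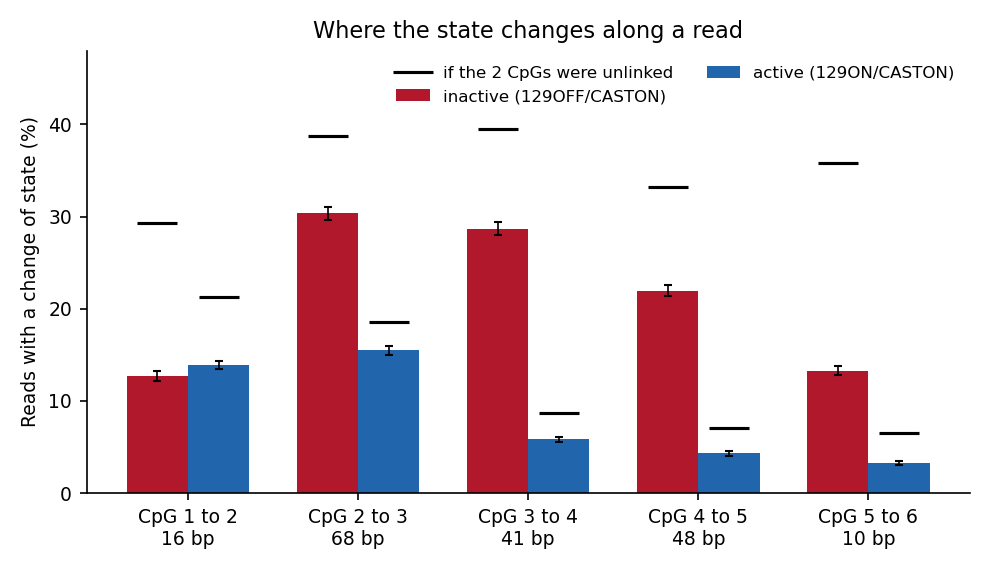
Percentage of reads in which the state changed between neighbouring CpGs (bars, with Wilson 95% intervals) on the inactive and active 129 allele, with the percentage that the 2 levels would give if the CpGs were unlinked (black lines). The inactive allele peaked at 30.4% and 28.7% on either side of CpG 3, and all 10 bars lie under their lines. The lines of the inactive allele are also highest there (38.8% and 39.5%).

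Changes were fewer than the levels alone would give in every interval. The observed share on the inactive allele was 0.371 of the unlinked share between CpGs 5 and 6 and 0.433 between CpGs 1 and 2, the 2 shortest intervals. It was 0.662 between CpGs 4 and 5, 0.725 between CpGs 3 and 4, and 0.783 between CpGs 2 and 3, the longest interval. The lowest ratio on the active allele was again that of CpGs 5 and 6 (0.505) and the highest that of CpGs 2 and 3 (0.836), with the other intervals between 0.612 and 0.672. Per base pair, the inactive allele changed state in 1.33% of reads between CpGs 5 and 6, 0.793% between CpGs 1 and 2, and 0.447% between CpGs 2 and 3. CpGs 3 and 4 were at 0.700% and CpGs 4 and 5 at 0.458%. On the active allele CpGs 1 and 2 were highest (0.868%), and CpGs 5 and 6 were at 0.329%. These values divide the observed share by the distance and take no account of the levels.

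The direction of the changes differed along the read. Reading from CpG 1 to CpG 6, 73.1% of the inactive changes between CpGs 2 and 3 went from methylated to unmethylated, and 29.3% of those between CpGs 3 and 4 did. For the active allele, 27.9% of changes between CpGs 1 and 2 and 82.6% of those between CpGs 2 and 3 went from methylated to unmethylated. In each interval the excess of one direction equals the difference between the levels of the 2 CpGs. Which direction prevailed therefore restates those levels.

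Inactive reads changed state 1.07 times on average and active reads 0.428 times, against 1.77 and 0.621 if the CpGs were unlinked. The means were closer among mixed reads alone, 1.82 on the inactive (9698 reads) and 1.70 on the active allele (5493 reads). Of the inactive reads, 41.2% had no change, 21.9% had 1, 27.9% had 2, and 6.93%, 1.64% and 0.394% had 3, 4 and 5. Of the active reads, 74.7% had no change, 9.54% had 1, 14.3% had 2, and 0.957%, 0.414% and 0.0184% had 3, 4 and 5.

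Reads with 1 change are methylated on one side of a boundary and unmethylated on the other. There were 3611 of these on the inactive allele, and in 2317 (64.2%, 62.6% to 65.7%) the left side was the methylated one. That share rose with the place of the boundary, from 13.3% between CpGs 1 and 2 over 44.4%, 50.2% and 83.8% to 96.9% between CpGs 5 and 6. The shorter side was thus mostly the unmethylated one. This order largely restates the levels of the CpGs. Multiplied as if unlinked, they give 4.50% for ○●●●●● against 0.0539% for ●○○○○○, and 7.16% for ●●●●●○ against 0.0339% for ○○○○○●. With the boundary in the middle, ●●●○○○ (371 reads) and ○○○●●● (368 reads) were about equally frequent. With the boundary between CpGs 4 and 5, ●●●●○○ had 754 reads and ○○○○●● 146.

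Among active reads 2074 had 1 change, and the left side was methylated in 1636 of them (78.9%). Here the share went the other way, from 99.7% between CpGs 1 and 2 and 96.6% between CpGs 2 and 3 to 66.3%, 36.2% and 8.96% in the intervals that follow, so that the shorter side was mostly the methylated one. The low levels of the active allele give this order too. As if unlinked, they give 6.46% for ●○○○○○ against 3.17e-05% for ○●●●●●, and 8.6e-05% for ●●●●●○ against 2.38% for ○○○○○●. ●○○○○○ and ●●○○○○ held 1434 of the 2074 reads, while their mirror images ○○○○○● and ○○○○●● held 351. In the other active library the 2 ends were closer, with 1392 and 1118 of 2896 reads.

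Reads with 2 changes have an inner stretch of the opposite state. For the inactive allele it was unmethylated in 4060 of 4608 such reads (88.1%) and covered a single CpG in 2955 of these. That CpG was CpG 3 in 56.8%, CpG 4 in 19.3%, CpG 2 in 15.5% and CpG 5 in 8.43%. For the active allele it was methylated in 3054 of 3117 reads (98.0%) and covered a single CpG in 2882 of these, CpG 2 in 67.7%, CpG 3 in 15.3%, CpG 4 in 10.9% and CpG 5 in 6.11%. Inner stretches of 2 or more CpGs made up 27.2% of the unmethylated ones on the inactive allele and 5.63% of the methylated ones on the active allele. The state of the inner stretch and its most frequent single CpG go with the levels. As if unlinked, the levels give 10.2% for ●●○●●● and 0.0238% for ○○●○○○ on the inactive allele. On the active allele they give 11.7% for ○●○○○○ and 1.76e-05% for ●○●●●●.

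Each CpG was then described given the state of its neighbours on the same read. On both alleles every CpG was most often methylated when both neighbours were methylated, and least often when neither was. On the inactive allele CpG 3 stood apart by its low level with 2 methylated neighbours, 77.6% (76.8% to 78.3%), against 91.4% at CpG 4, 93.1% at CpG 2 and 95.2% at CpG 5. With 2 unmethylated neighbours, CpG 4 was highest at 38.3% (36.1% to 40.7%), and CpGs 2, 3 and 5 were at 24.2%, 17.1% and 9.76%.

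Where the 2 neighbours disagreed, CpGs 2, 3 and 5 were more often methylated with the nearer neighbour methylated, and CpG 4 with the farther one. CpG 2, 16 bp from CpG 1 and 68 bp from CpG 3, was methylated in 88.2% of inactive reads with CpG 1 methylated and CpG 3 not, and in 46.8% of those with the reverse. CpG 5, 10 bp from CpG 6 and 48 bp from CpG 4, was methylated in 83.9% with only CpG 6 methylated and in 47.0% with only CpG 4 methylated. At CpGs 3 and 4, whose neighbours are at more similar distances, the 2 values were closer, 58.0% with only the right and 51.0% with only the left neighbour methylated at CpG 3, and 74.5% and 68.0% at CpG 4. In each of these cases the neighbour with the higher value was the nearer one, except at CpG 4, where CpG 3 is nearer (41 bp) than CpG 5 (48 bp). The active allele had the same order at CpG 2, with 46.3% when only CpG 1 and 14.8% when only CpG 3 was methylated. At CpG 5 it had 28.3% when only CpG 6 and 13.8% when only CpG 4 was methylated. CpG 3 was at 16.9% with only CpG 4 and 7.90% with only CpG 2 methylated. CpG 4 was again higher with only the farther CpG 5 methylated (25.3%) than with only CpG 3 (16.8%).

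The same CpGs of the active allele started from a lower level. With 2 unmethylated neighbours CpG 2 was methylated in 10.9% of reads, and CpGs 3, 4 and 5 in 2.76%, 2.12% and 1.23%. With 2 methylated neighbours they reached 93.2%, 74.2%, 82.4% and 79.5%, on 262 to 425 reads each. CpG 2 with both neighbours methylated was thus at nearly the same level on the active allele as on the inactive one (93.2% and 93.1%), and CpG 3 was within 3.33 points (74.2% and 77.6%). The other active library was lower in this context at CpGs 2, 3 and 4, with 65.0%, 64.4% and 73.0%, and higher at CpG 5, with 95.4%.

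**Figure D4:**
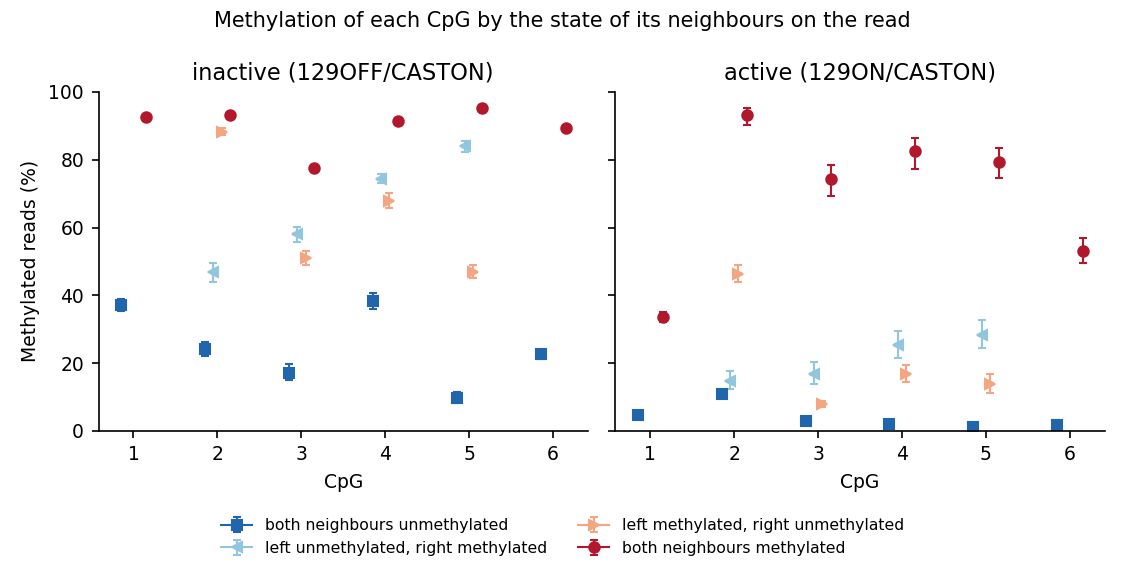
Percentage of reads in which each CpG was methylated (y axis), split by the states of its left and right neighbour on the read, with Wilson 95% intervals, for the inactive (left panel) and active (right panel) 129 allele. CpGs 1 and 6 have 1 neighbour and are drawn with the 2 uniform symbols, and CpG 3 has the lowest level among reads with methylated neighbours on the inactive allele (77.6%).

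At the ends there is a single neighbour. CpG 1 was methylated in 92.8% of inactive reads with CpG 2 methylated and in 37.1% of those without, against 33.6% and 4.57% on the active allele. CpG 6 was methylated in 89.2% of inactive reads with CpG 5 methylated and in 22.6% of those without, against 53.2% and 1.83% on the active allele. In the other active library CpG 1 was at 24.6% beside a methylated CpG 2, and CpG 6 at 72.8% beside a methylated CpG 5.

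The link between 2 CpGs was also given as an odds ratio, the odds that one is methylated where the other is, over the odds where it is not, which does not depend on their levels. As measured, all 15 pairs had an odds ratio above 1 on both alleles, with intervals clear of 1. They ran from 1.71 (CpGs 3 and 6) to 28.4 (CpGs 5 and 6) on the inactive and from 2.87 (CpGs 2 and 6) to 61.0 (CpGs 5 and 6) on the active allele. In 14 of 15 pairs the active allele of the 129ON/CASTON library had the higher value, and in 12 of 15 that of the other active library did. CpGs 1 and 2 were lower than on the inactive allele in both, with 21.8 (19.7 to 24.0) on the inactive and 10.6 (9.55 to 11.7) on the active allele, and 9.09 in the other active library. CpGs 2 and 3 (2.69 against 3.32 on the inactive allele) and CpGs 2 and 6 (1.93 against 2.01) were lower in the other active library only.

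A log-linear model with all pairwise terms then gave the odds ratio of each pair given the other 4 CpGs. On the inactive allele the neighbours at close range kept nearly all of their link, 27.3 for CpGs 5 and 6 (24.6 to 30.2) and 18.0 for CpGs 1 and 2 (16.3 to 19.9). CpGs 4 and 5 were at 4.42, CpGs 3 and 4 at 3.29, and CpGs 2 and 3 and CpGs 1 and 3 at 2.00 and 2.01. The remaining pairs lay between 0.854 and 1.65. CpGs 3 and 6 had the one value below 1 whose interval was clear of it (0.769 to 0.948), while CpGs 4 and 6 (1.09) and CpGs 2 and 5 (0.999) had intervals that included 1. These adjusted values describe how reads are distributed and assume no interaction of 3 or more CpGs.

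For the active allele the adjusted value was 26.3 for CpGs 5 and 6 (21.3 to 32.4), close to that of the inactive allele, but 127 in the other active library. CpGs 1 and 2 were at 8.66 (7.80 to 9.60), CpGs 3 and 4 at 6.85, CpGs 4 and 5 at 6.76 and CpGs 4 and 6 at 5.67. CpGs 4 and 6 thus went from 1.09 on the inactive to 5.67 on the active allele, and the other active library lay between them, 2.33 times the inactive value. Of the 15 pairs, the interval of the ratio of active to inactive allele lay above 1 for 9, below 1 for CpGs 1 and 2 alone (0.481, 0.416 to 0.556) and included 1 for 5. Between the 2 active libraries the interval of the ratio excluded 1 for 5 pairs.

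**Figure D5:**
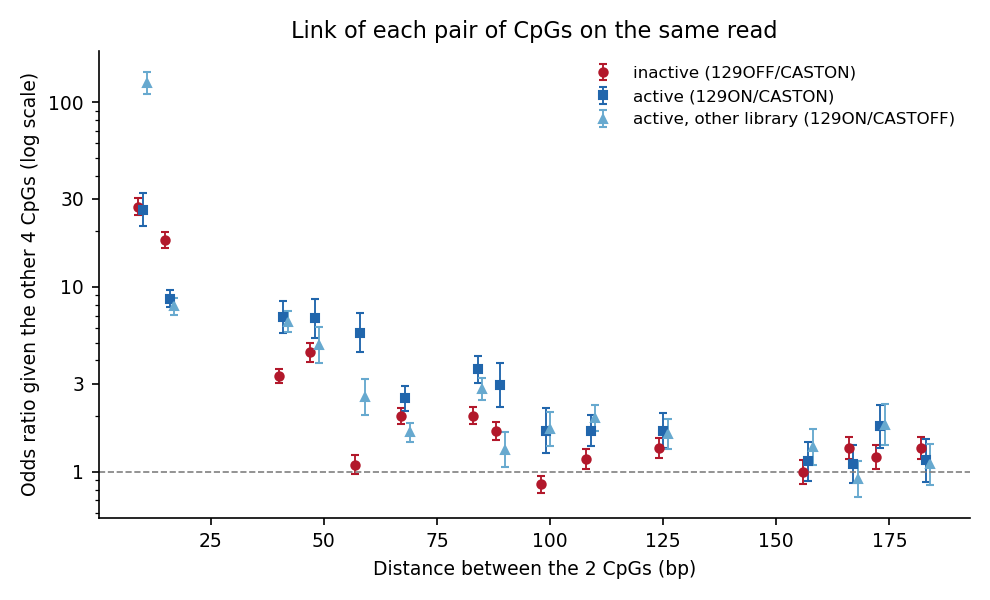
Odds ratio of each of the 15 pairs of CpGs given the other 4, on a log axis, against the distance between the 2 CpGs in bp (points of the inactive library and the other active library are shifted by 1 bp), with 95% intervals. The 2 closest pairs have the highest values in all 3 libraries, and CpGs 1 and 2 at 16 bp are the one pair for which the ratio of each active library to the inactive one (18.0) was below 1 with its whole interval. The dashed line marks no link.

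Whether CpGs 1 and 2 had a higher value on the inactive allele once the uniform reads were set apart depended on the active library. With a term of their own for the fully methylated and the fully unmethylated pattern, the inactive allele was at 15.8 (14.1 to 17.7) and the active one at 13.5, and the interval of their ratio included 1 (0.854, 0.689 to 1.06). The other active library was at 8.80 (7.54 to 10.3), below the interval of the inactive allele. For CpGs 4 and 6 the same change left 0.977 on the inactive and 6.78 on the active allele, and 2.44 in the other active library.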

How the data were processed

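DNA of sorted 129/Castaneus F1 hybrid mESCs was bisulfite-converted and an SCR amplicon sequenced on the MiSeq, with 1 library per population. Alignment to mm10 and methylation calling by the authors used Bismark 0.22.3, per the submitters' processing notes, and 2 SNPs told the alleles apart. Each line of the deposited files gives a read, a cytosine and its call (methylated or unmethylated), which was used unchanged. The labels name 7 CpGs in the amplified region, and 6 positions carried nearly all calls. The 6 other called positions in each library held 32 calls on the inactive and 25 on the active side, all unmethylated, and were left out.

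Calls were grouped by read with Python 3.11.15, numpy 2.4.6, scipy 1.17.1 and statsmodels 0.14.6, and figures drawn with matplotlib 3.10.9. Positions needed at least 50 calls. CpGs, patterns and intervals were compared with two-sided Fisher's exact tests and Benjamini-Hochberg adjustment over 6, 64 and 5 tests (threshold 0.05). The test was checked on simulated counts drawn independently of each other. That setting has no PCR copies and no patterns that share a total, so it does not cover these features of the reads. Shares have Wilson, differences Newcombe, and measured odds ratios Woolf 95% intervals, and a count of 0 was given the limit of 3 reads. Adjusted odds ratios have 95% intervals from the standard errors of the log-linear model. Named patterns were the 10 most frequent of each library, the uniform ones and the 12 with a single odd CpG, and others were named where a count or range singled them out, after their values were seen. The members and lists were chosen with earlier results of these data known.

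Alternatives were the 129ON/CASTOFF library as the active side, all reads, 500 calls, minimum differences of 10 points (CpGs, intervals) or 1 point (patterns), at least 10 reads per pattern, and CpG 2 or CpG 6 left out. Chosen after seeing the data were the comparison of the 2 active libraries, own terms for the uniform patterns, and the state of the other 5 CpGs as a context. A planned comparison of flow cell tiles was not made, since read names in the files are plain numbers. Castaneus calls were used only to count reads.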

Additional observations from a re-analysis of the deposited data

Results flagged for a closer look

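For 10 pairs of CpGs the odds ratio given the other 4 CpGs differed between the active (129ON/CASTON) and the inactive (129OFF/CASTON) 129 allele. The interval of the ratio excluded 1 in the direct comparison of the 2 libraries, both as measured and given the other 4 CpGs. The intervals were not corrected for the number of pairs. Given as active over inactive, the ratio was below 1 for CpGs 1 and 2 (0.481). It was above 1 for CpGs 1 and 3 (1.78), 1 and 5 (1.46), 2 and 3 (1.25), 2 and 4 (1.42), 3 and 4 (2.08), 3 and 5 (1.79), 3 and 6 (1.95), 4 and 5 (1.53) and 4 and 6 (5.20). Some intervals came close to 1, as for CpGs 2 and 3 (1.03 to 1.51) and 1 and 5 (1.07 to 1.99). With own terms for the uniform patterns, the interval of CpGs 1 and 2 included 1. Those of CpGs 1 and 4 (1.48) and 5 and 6 (1.41) then excluded it.

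With the 129ON/CASTOFF library as the active side, 7 of the 10 pairs differed in the same direction with an interval that excluded 1, among them CpGs 1 and 2 (0.437), 3 and 4 (1.97) and 4 and 6 (2.33). The other 3 were CpGs 2 and 3 (0.814, on the other side of 1), 3 and 5 (0.794) and 4 and 5 (1.10), the last 2 with intervals that included 1. The pair of CpGs 5 and 6, at 0.963 between the inactive and the 129ON/CASTON library, was at 4.66 with the 129ON/CASTOFF library. There was 1 library per population, so the spread between replicates was not measured.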

How the results depend on the processing

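Of the 26 alternatives planned, 12 were counted as the same and 14 as moved. For shares and means, the same meant within the limits of the main value. Counts of CpGs, patterns and intervals have no limits. Changes such as 56 to 59 patterns or 5 to 4 intervals were counted as the same. All 6 CpGs and 5 intervals were called under the alternatives run, except that 4 intervals passed once a 10-point difference was asked for. The 56 patterns became 20 once a 1-point difference was asked for. Without CpG 2, mean methylation was 76.6% on the inactive and 4.95% on the active allele, fully methylated and mixed reads on the inactive allele were 41.2% and 55.7%, and mixed and fully unmethylated reads on the active allele were 16.3% and 83.0%. With the 129ON/CASTOFF library as the active side, mean methylation was 5.68%, fully methylated, mixed and fully unmethylated reads were 0.355%, 22.7% and 77.0%, and state changes per read 0.393. Without CpG 6, state changes per read were 0.937 on the inactive and 0.395 on the active allele. Of 45 alternatives added after seeing the data, 42 left the call as it was. These concern the adjusted odds ratio of a pair within a library and its place relative to 1, not its size. CpGs 5 and 6 on the active allele, at 26.3 and with the 129ON/CASTOFF library at 127, counted as unchanged. Ratios of active to inactive allele were not among the 45. With own terms for the uniform patterns, the adjusted odds ratio of CpGs 2 and 4 on the inactive allele went from 1.17 to 0.991 (0.870 to 1.13) and that of CpGs 1 and 5 from 1.20 to 1.09 (0.936 to 1.28). In the 129ON/CASTOFF library that of CpGs 2 and 5 on the active allele went from 1.14 to 1.35 (1.08 to 1.69). The cause of these changes was not tested. No paired analysis was possible because each population has 1 library and the labels give no replicate numbers. The 57 to 168 reads behind the rare near-uniform patterns of the active allele limit what can be said of them.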
